A study of Arabidopsis thaliana with 6 samples.

Results

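COR15B, KIN2, COR413IM1 and CBF2 are 4 cold-pathway genes of Arabidopsis thaliana, taken by their locus identifiers from deposited tables that hold 5330 genes in all. Whole seedlings gave the RNA, from wild type (Col-0) and from a line labelled as the double mutant epl1a epl1b, both of ecotype Columbia-0, with 3 libraries per genotype from 3 independent experiments. EPL1A and EPL1B encode subunits of NuA4, a complex that acetylates histone H4, and the series title sets its question around NuA4 and chloroplast formation. All seedlings were 14 days old and were collected 8 h after dawn in days of 16 h light and 8 h dark. They were grown at 22 °C on plates with 1% sucrose under 100 µmol of light per square metre and second. No group received a cold treatment other than 3 days at 4 °C given to the seed, which both genotypes share. Which alleles the line carries, and whether they leave partial transcripts, the labels do not say.

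In the cold, plants acclimate through the CBF transcription factors, AP2/ERF proteins that are switched on early and bind a short promoter element named CRT or DRE. Their targets, the COR genes, encode small hydrophilic and membrane proteins that keep cell and chloroplast membranes intact during freezing and dehydration. Many COR genes also respond to abscisic acid through G-boxes and related elements. In warm-grown seedlings the CBF genes follow the circadian clock and the COR genes keep a basal level. CBF2 is the regulator among the members. COR15B is a protein of the chloroplast stroma that stabilises membranes, KIN2, also named COR6.6, is a small hydrophilic protein, and COR413IM1 is a multispan protein of the inner chloroplast envelope.

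The elements before the start codons are shown first, because the members differ in them. Each match was sought on both strands in the 500 bases before the start codon, in the RefSeq TAIR10.1 sequence. These windows are unlike: gene start to start codon spans 560 bases for COR15B, 247 for KIN2, 127 for COR413IM1 and 149 for CBF2. The COR15B window thus lies wholly inside its own gene, and no sequence before that gene was searched. Differences between members may therefore reflect what the windows cover. The CRT/DRE core CCGAC was found in 1 copy each for COR15B, KIN2 and COR413IM1 and in 0 copies for CBF2. Of 27443 protein-coding genes, 23.3% hold it in a window of that length. COR15A, the neighbouring copy of COR15B, holds 2, and KIN1, the neighbouring copy of KIN2, holds 1. COR413IM2, CBF3 and CBF1 hold 0, and the COR413IM2 window reaches into the COR413IM1 gene. The 25-base sites below are printed 5′ to 3′ on the strand of the gene, with the core in capitals (GTCGG is the core on the other strand).
COR15B, chr2:17710124-17710148, minus strand: aacttgatggCCGACctcttttttc
COR15A, chr2:17712218-17712242, minus strand: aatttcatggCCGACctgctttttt
COR15A, chr2:17712395-17712419, minus strand: aacttgttggCCGACatacatttgt
KIN2, chr5:5211771-5211795, plus strand: taaaaagctaCCGACataaggcaaa
KIN1, chr5:5209804-5209828, plus strand: taaatagctaCCGACataaggcaaa
COR413IM1, chr1:10289911-10289935, minus strand: aattagttatGTCGGtaccaatgaa
The COR15B core begins 265 bases before the start codon and one of the COR15A cores begins 266 bases before it. Both KIN cores lie at similar distances, 185 bases for KIN2 and 178 for KIN1. The COR15B, KIN2 and KIN1 sites lie inside the annotated first exon, whereas the COR413IM1 site lies between genes, 386 bases before the start codon.

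Every member holds at least 1 G-box, CACGTG, which light and abscisic acid bZIP factors and bHLH factors can bind. COR15B, COR413IM1 and CBF2 hold 1 and KIN2 holds 3, against 9.30% of protein-coding genes with any. Those of COR15B and KIN2 lie inside an annotated exon, and those of COR413IM1 and CBF2 lie between genes. The G-boxes of COR15B and KIN2 are shown with the box in capitals, since KIN2 is the member with several.
COR15B, chr2:17710001-17710026, minus strand: ctagcactcaCACGTGtagttttgga
KIN2, chr5:5211738-5211763, plus strand: actaaaacgaCACGTGatgtcttgat
KIN2, chr5:5211811-5211836, plus strand: aaacgtaatcCACGTGgtttcagatt
KIN2, chr5:5211828-5211853, plus strand: tttcagattaCACGTGgcaccacaca
The ABRE core ACGTG, which overlaps every G-box and is then counted on both strands, was matched 3 times for COR15B, 7 for KIN2, 5 for COR413IM1 and 2 for CBF2. It is found before 34.8% of protein-coding genes.

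The evening element core AAATATCT, a site of the clock proteins CCA1 and LHY, was found once each for CBF2, COR15B and KIN2 and 0 times for COR413IM1. It occurs before 8.26% of protein-coding genes. The COR15B and KIN2 matches lie inside an annotated exon, and the CBF2 match lies between genes. CBF3, the next gene to CBF2, also holds 1 match, in an exon and at a similar distance. The pair is shown because the levels of these genes are compared below.
CBF2, chr4:13016269-13016296, minus strand: acaaatatccAAATATCTtccggccaat
CBF3, chr4:13019175-13019202, minus strand: tttgcctctaAAATATCTtccgccatta
The 300 bases before the annotated gene start are printed for COR413IM1, the member that fell most, and CBF2, the member that rose. CRT/DRE cores, G-boxes and evening element cores are in capitals.
COR413IM1, chr1:10289667-10289966, minus strand: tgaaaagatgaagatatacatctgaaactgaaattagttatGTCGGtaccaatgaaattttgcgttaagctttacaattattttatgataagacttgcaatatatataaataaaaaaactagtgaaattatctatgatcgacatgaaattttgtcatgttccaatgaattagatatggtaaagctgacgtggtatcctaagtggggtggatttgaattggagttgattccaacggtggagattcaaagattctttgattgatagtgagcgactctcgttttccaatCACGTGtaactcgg
CBF2, chr4:13016236-13016535, minus strand: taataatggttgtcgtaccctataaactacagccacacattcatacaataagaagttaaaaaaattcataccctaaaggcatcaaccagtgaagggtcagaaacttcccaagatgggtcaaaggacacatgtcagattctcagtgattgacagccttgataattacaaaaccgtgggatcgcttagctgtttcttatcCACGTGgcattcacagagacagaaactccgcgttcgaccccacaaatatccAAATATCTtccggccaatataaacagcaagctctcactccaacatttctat
A match is a description of the letters and does not show that a factor binds there.

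**Figure D1:**
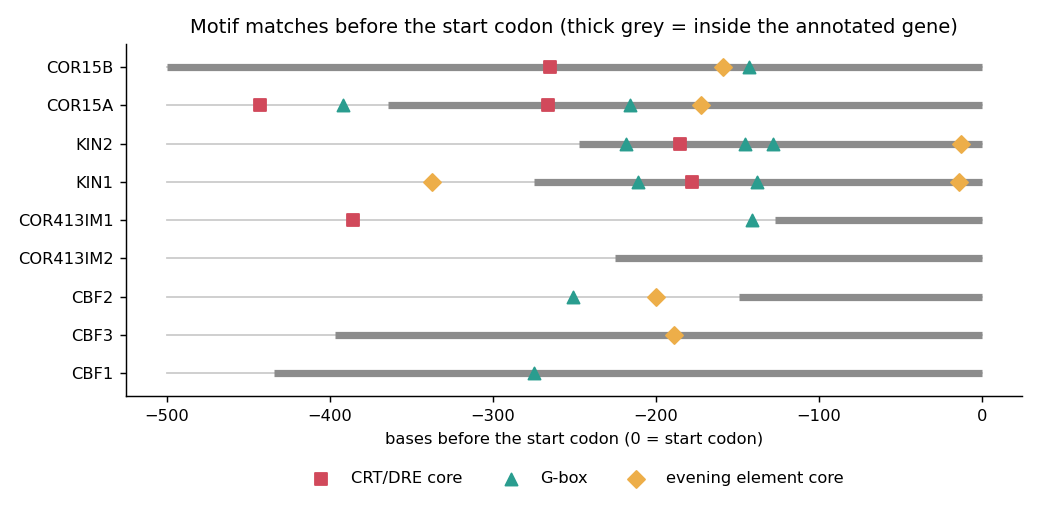
Position of motif matches in the 500 bases before the start codon of the members and their neighbouring copies, with bases before the start codon on the horizontal axis and thick grey lines for the part inside the annotated gene. CRT/DRE cores (squares) appear before COR15B, COR15A, KIN2, KIN1 and COR413IM1, and no row of a CBF gene or of COR413IM2 has one.

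Levels are given as normalised reads, which are counts over the scaling factor of each library relative to Col-0 replicate 1. The tables hold 9265086 to 10938542 reads of listed genes in a Col-0 library and 7355421 to 8625707 in an epl1ab one. These sums are not library depths, which are unknown here. The targeted genes went apart, EPL1A from 367.2 ± 9.59 to 124.5 ± 3.34 and EPL1B from 719.5 ± 57.5 to 17051 ± 69.2 (normalised reads, mean ± SD of 3 libraries). EPL1B goes against its label, so the mutant libraries are called epl1ab-labelled, and each direction given here is one between labels. Markers of the seedling's leaf tissue were read in every library: 3 of 8 leaf markers were in the tables, with a summed level of 861620 to 960690 normalised reads in Col-0 and 332894 to 399025 in the epl1ab-labelled libraries. Of 17 seed maturation genes 16 were in the tables, and their summed level was 118.3 to 481.0 in Col-0, 1221 in epl1ab-labelled replicate 1, 206498 in replicate 2 and 299772 in replicate 3. One of 5 root markers was listed, TIP2;3, at 259.9 to 360.9 normalised reads in Col-0 and 742.7 to 1272 in the epl1ab-labelled libraries.

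All 4 members were in the tables, 3 listed lower and 1 higher, where 33.9% of all listed genes were lower and 66.1% higher. All 4 entered the edgeR fit and were called, as were 100.0% of the genes in it, 36.9% lower and 63.1% higher, because the authors kept only genes past a threshold. A call by itself therefore sets no member apart. In bulk tissue, fewer cells of a type and less RNA per cell cannot be told apart.

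CBF2, also named DREB1C, is the transcription factor of the group (AT4G25470, chromosome 4, 13015250 to 13016235, minus strand, TAIR10, a single exon). It had 26, 31.2 and 52.5 normalised reads in Col-0 replicates 1, 2 and 3 and 96.9, 65.6 and 64.4 in epl1ab-labelled replicates 1, 2 and 3. The groups did not overlap, as was so for 98.5% of all listed genes (64.7% higher and 33.9% lower), and the lowest epl1ab-labelled library stood close to the highest Col-0 library. The level rose 2.09-fold (log2 fold change 1.06 with an SE of 0.31, adjusted p = 0.0116 in edgeR, 3 libraries a group), on 98 raw reads in Col-0 and 257 in the epl1ab-labelled group. In the authors' deposited table its log2 fold change was 1.06, and 139 of the 3524 genes listed higher had a smaller one, so it stood just inside the threshold of 1. Its rise depends on the scaling between libraries: the log2 fold change was 0.61 with TMM factors computed on the listed genes (edgeR adjusted p = 0.0993) and -0.02 with DESeq2 size factors computed on them (edgeR adjusted p = 0.964). Over all genes in the fit these factors moved the median log2 fold change by -0.47 and -1.11.

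COR15B (AT2G42530, chromosome 2, 17708593 to 17710433, minus strand, 2 exons) stands for the chloroplast stroma. It had 5886, 8745 and 6383 normalised reads in Col-0 replicates 1, 2 and 3, and 788.6, 1043 and 424.3 in epl1ab-labelled replicates 1, 2 and 3. Every epl1ab-labelled library was far below every Col-0 library. The level fell 9.32-fold (log2 fold change -3.22 with an SE of 0.34, adjusted p = 5.71e-05 in edgeR, 3 libraries a group). Of the members it varied most among the epl1ab-labelled libraries, with a coefficient of variation of 41.3%, and replicate 3 was the lowest. The last 468 bases of COR15B overlap AT2G42520, a gene on the other strand that was not in the tables. Whether the authors counted by strand was not stated in what was used here, so reads there may belong to either gene.

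KIN2 (AT5G15970, chromosome 5, 5211719 to 5212743, plus strand, 3 exons) was the most abundant member. Col-0 replicates 1, 2 and 3 had 11857, 14068 and 13286 normalised reads, and epl1ab-labelled replicates 1, 2 and 3 had 2039, 2085 and 1975. The epl1ab-labelled libraries were almost level with each other, with a coefficient of variation of 2.73%. The fall was 6.43-fold (log2 fold change -2.68 with an SE of 0.09, adjusted p = 9.12e-07 in edgeR, 3 libraries a group).

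COR413IM1 (AT1G29395, chromosome 1, 10288129 to 10289666, minus strand, 6 exons) fell most. It had 3590, 5091 and 3909 normalised reads in Col-0 replicates 1, 2 and 3, and 122.9, 156.2 and 126.4 in epl1ab-labelled replicates 1, 2 and 3. The highest epl1ab-labelled library held a small part of the lowest Col-0 library. The fall was 31.0-fold (log2 fold change -4.96 with an SE of 0.18, adjusted p = 9.12e-07 in edgeR, 3 libraries a group). Ranked by size of change in the authors' deposited table (log2 fold change), COR413IM1 came at 31, COR15B at 100 and KIN2 at 165 among the 1806 genes listed lower.

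**Figure D2:**
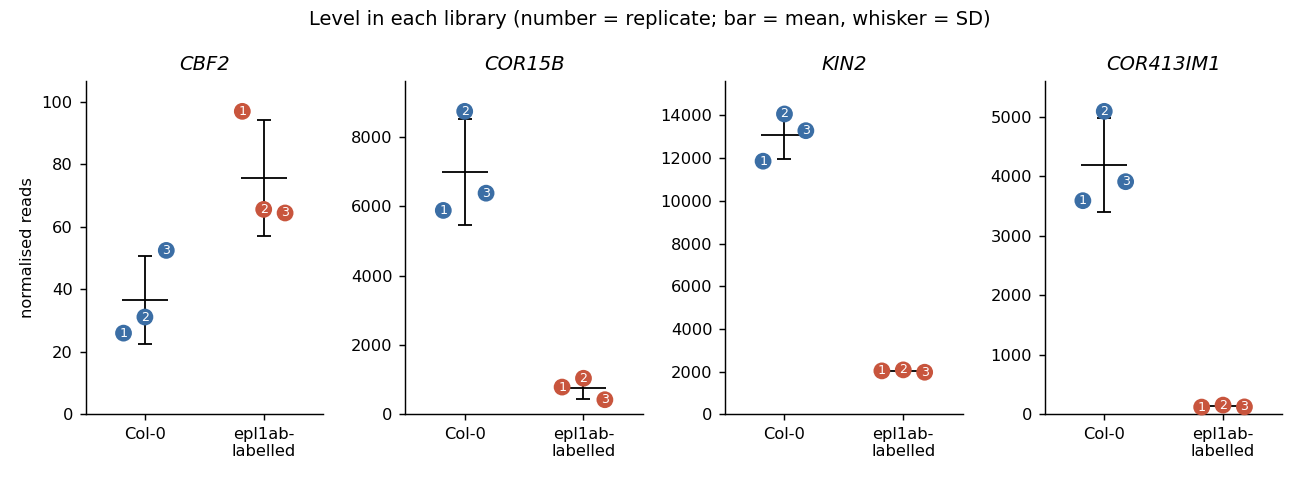
Normalised reads of CBF2, COR15B, KIN2 and COR413IM1 in each library, 1 circle per library with its replicate number, horizontal bars for group means and whiskers for the SD (n = 3). CBF2 lies between 26 and 52.5 in Col-0 and between 64.4 and 96.9 in the epl1ab-labelled libraries, and the other genes lie lower in every epl1ab-labelled library.

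Per kilobase of annotated exon, KIN2 had the highest level in Col-0, at 17427 normalised reads per kb, and CBF2 the lowest, at 37.1. COR15B and COR413IM1 lay between them at 4422 and 4110 normalised reads per kb. Their Col-0 ranges overlapped, 3716 to 5521 for COR15B and 3516 to 4986 for COR413IM1. Within each Col-0 library COR15B was slightly higher, at 3716, 5521 and 4030 against 3516, 4986 and 3829 in replicates 1, 2 and 3. This difference was not tested. In the epl1ab-labelled libraries the order was the same, but the ranges of COR15B and COR413IM1 had separated. COR15B had 267.8 to 658.2 normalised reads per kb there, COR413IM1 had 120.4 to 153.0 and CBF2 had 65.3 to 98.3.

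Each member lies beside a near copy, and these copies were compared within a library, where the scaling between libraries cancels out. Reads can be told apart between copies for the most part: every exonic stretch of 50 bases, the read length, occurs once in the genome for COR15B, and 99.8%, 98.6% and 96.1% do for KIN2, COR413IM1 and CBF2. The coding sequences are 82.6% identical between COR15B and COR15A, 95% between KIN2 and KIN1, 86.8% between COR413IM1 and COR413IM2, and 86.7% between CBF2 and CBF3. Sequencing errors can still move a read between copies.

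CBF2 and CBF3 went in opposite directions with the recovered scaling and with TMM factors, but not with DESeq2 size factors, where CBF2 was at -0.02. CBF3, also named DREB1A, which binds the same element, had 133.0, 139.6 and 170.8 normalised reads in Col-0 and 86.6, 71.4 and 48.5 in the epl1ab-labelled ones, a fall of 2.15-fold (log2 fold change -1.10 with an SE of 0.24, adjusted p = 0.00259 in edgeR, 3 libraries a group). The ratio of CBF2 to CBF3 reads was 0.195, 0.223 and 0.307 in Col-0 and 1.12, 0.919 and 1.33 in the epl1ab-labelled libraries. Per kilobase of exon, CBF3 had the higher level of the pair in all 3 Col-0 libraries, at 95.6 to 122.8 normalised reads per kb against 26.4 to 53.2 for CBF2. CBF2 had the higher level in all 3 epl1ab-labelled libraries, at 65.3 to 98.3 against 34.9 to 62.2. For the closest libraries, the 95% exact (Clopper-Pearson) intervals of the ratio were 0.213 to 0.435 in Col-0 replicate 3 and 0.651 to 1.29 in epl1ab-labelled replicate 2, which cover counting error only. The ratio rose 4.67-fold (two-sided exact permutation test p = 0.1, adjusted p = 0.125 over 5 ratios; 0.1 is the smallest that 3 against 3 libraries allow). CBF1, the other gene of the cluster, was not in the tables. A noncoding RNA gene, AT4G07385, overlaps 29 bases of CBF3 on the other strand.

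Both envelope protein genes fell. COR413IM2 encodes the other inner-envelope copy and lies downstream of COR413IM1, with 25 bases between the genes. It had 2497, 2635 and 2513 normalised reads in Col-0 and 671.7, 602.8 and 568.2 in the epl1ab-labelled ones, a fall of 4.15-fold (log2 fold change -2.05 with an SE of 0.09, adjusted p = 1.33e-06 in edgeR, 3 libraries a group). The ratio of COR413IM1 to COR413IM2 reads was 1.44, 1.93 and 1.56 in Col-0 and 0.183, 0.259 and 0.222 in the epl1ab-labelled libraries. Per kilobase of exon COR413IM1 had the higher level of the pair in all 3 Col-0 libraries and the lower one in all 3 epl1ab-labelled libraries, where COR413IM2 had 427.5 to 505.4 normalised reads per kb. The ratio was 7.43-fold lower in the epl1ab-labelled libraries, with no overlap (two-sided exact permutation test p = 0.1, the smallest possible, adjusted p = 0.125). In the 500 bases searched, COR413IM2 had 0 CRT/DRE cores and 0 G-boxes, and 4 ABRE cores against 5 for COR413IM1. The windows are not alike: COR413IM2 has 225 bases from gene start to start codon, so its window reaches into the COR413IM1 gene. AT1G29380, a gene on the other strand that was not in the tables, overlaps 98 bases of COR413IM2.

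Both COR15 genes fell. COR15A, also a chloroplast stroma protein, lies upstream of COR15B, with 7 bases between the genes. It had 3761, 5915 and 3395 normalised reads in Col-0 replicates 1, 2 and 3, and 750.5, 860.3 and 508.8 in epl1ab-labelled replicates 1, 2 and 3. Both copies were highest in replicate 2 of each label, and lowest in epl1ab-labelled replicate 3. COR15A fell 6.17-fold (log2 fold change -2.63 with an SE of 0.27, adjusted p = 5.48e-05 in edgeR, 3 libraries a group). The ratio of COR15B to COR15A went from 1.57, 1.48 and 1.88 in Col-0 to 1.05, 1.21 and 0.834, 1.60-fold lower with no overlap (two-sided exact permutation test p = 0.1, the smallest possible, adjusted p = 0.125).

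KIN1 was scarce beside KIN2. It had 351.0, 446.9 and 248.9 normalised reads in Col-0 and 55.4, 110.0 and 113.8 in the epl1ab-labelled ones, a fall of 3.75-fold (log2 fold change -1.91 with an SE of 0.33, adjusted p = 0.000768 in edgeR, 3 libraries a group). KIN2 had 31.5 to 53.4 reads per KIN1 read in Col-0 and 17.4 to 36.8 in the epl1ab-labelled libraries, so these ranges overlapped (two-sided exact permutation test p = 0.3, adjusted p = 0.3).

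**Figure D3:**
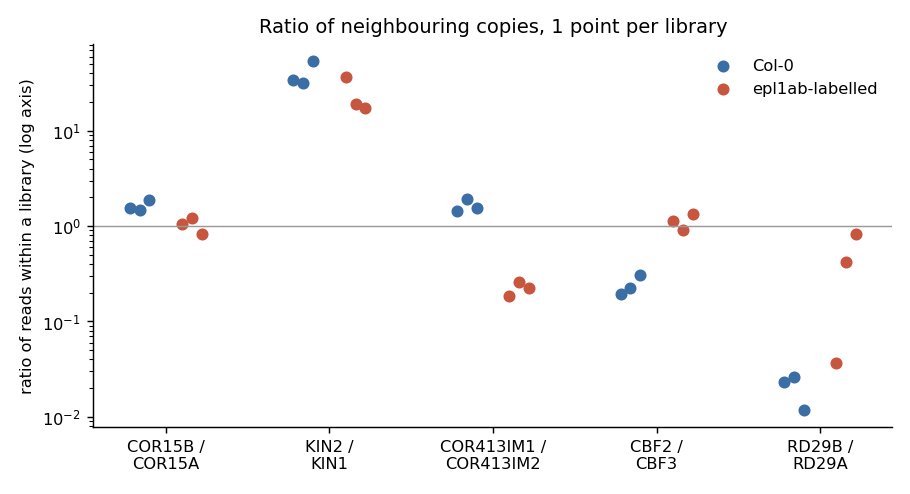
Ratio of reads between neighbouring copies on a log axis, 1 point per library, with Col-0 in blue and epl1ab-labelled libraries in red. The CBF2 to CBF3 ratio is at most 0.307 in Col-0 and at least 0.919 in the epl1ab-labelled libraries, the COR413IM1 to COR413IM2 ratio goes the other way, and the KIN2 to KIN1 points overlap.

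Cold-responsive genes at large split between both directions. Of 37 genes in the list, 17 were in the tables, and edgeR called 10 lower and 7 higher. As a share of the list, 27.0% were listed lower and 18.9% higher, against 6.31% and 12.3% of nuclear protein-coding genes of the annotation. The median log2 fold change of the 17 was -1.66, against 1.26 for all genes in the fit. The list includes COR15B, KIN2, COR413IM1 and their copies, and was chosen with earlier results of these data known. These shares and the median therefore partly restate the members. The lower group holds COR15B, KIN2 and COR413IM1 with their copies COR15A, KIN1 and COR413IM2, and RD29A, GOLS2, BAM3 and FAD8. RD29A, a hydrophilic protein widely used as a marker of the CBF response, fell 3.17-fold. FAD8, a plastid omega-3 desaturase, fell 3.89-fold. BAM3, a plastid beta-amylase, fell 3.77-fold, and GOLS2, a galactinol synthase, fell 2.42-fold. COR47, ERD10, COR413PM1 and GOLS3 were among the 20 that were not in the tables.

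The genes called higher were ELIP1 and ELIP2, early light-induced proteins of the thylakoid, GOLS1, LTI30, RCI2B, RAB18 and RD29B. GOLS1, another galactinol synthase, rose 6.39-fold (log2 fold change 2.67 with an SE of 0.14, adjusted p = 2.77e-06 in edgeR, 3 libraries a group). ELIP1 rose 6.13-fold and LTI30, a dehydrin, rose 3.73-fold. RCI2B, a small membrane protein, rose 3.05-fold. In epl1ab-labelled replicates 1, 2 and 3, LTI30 had 1233, 1800 and 1936 normalised reads and RCI2B had 690.8, 1090 and 1079. Both were thus lowest in replicate 1, though still above every Col-0 library. ELIP2 rose 17.4-fold from 27.0, 1.07 and 18.3 normalised reads in Col-0, so its fold rests on few reads. Within the galactinol synthases GOLS1 was thus higher and GOLS2 lower, under each scaling tried.

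**Figure D4:**
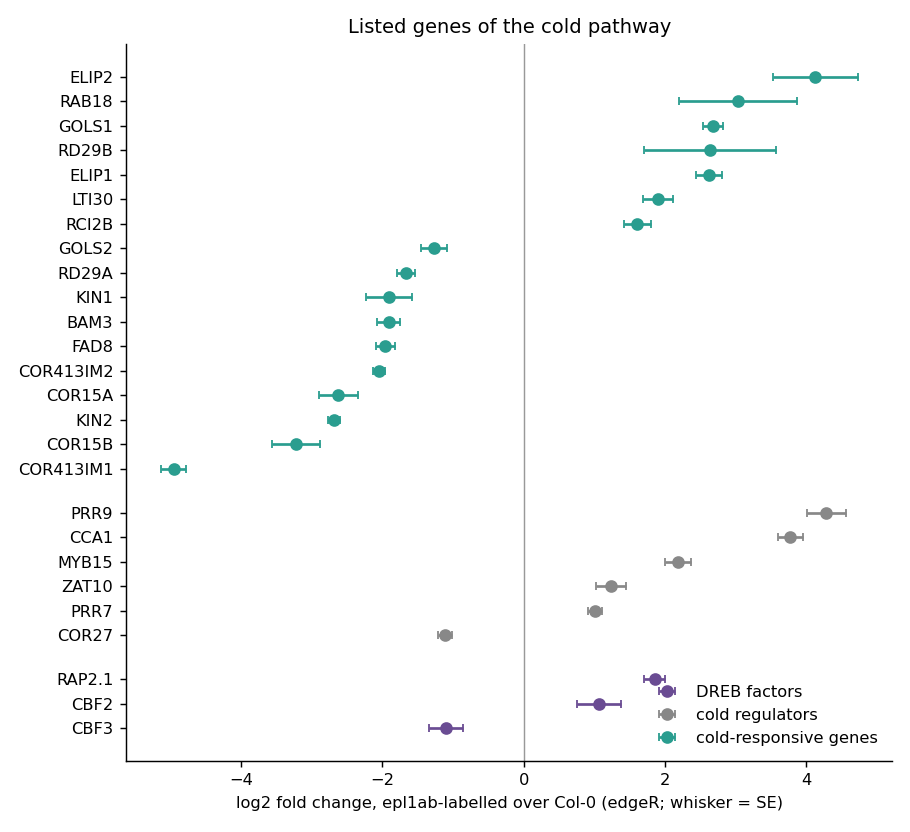
Log2 fold change of the listed DREB factors, cold regulators and cold-responsive genes, epl1ab-labelled over Col-0, with whiskers for the SE of the edgeR fit. COR413IM1 is the lowest at -4.96 and PRR9 the highest at 4.28. CBF2 and CBF3 lie on opposite sides of 0, although CBF2 was at -0.02 with DESeq2 size factors.

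RD29B and RAB18, both abscisic acid-responsive proteins of dry tissue, varied between the epl1ab-labelled libraries. RD29B had 340.0, 400.7 and 142.7 normalised reads in Col-0 and 167.1, 2094 and 3245 in epl1ab-labelled replicates 1, 2 and 3. RAB18 had 395.0, 255.7 and 327.0 in Col-0 and 372.2, 2144 and 5448 in the epl1ab-labelled ones. For both genes epl1ab-labelled replicate 1 lay within the Col-0 range, and the groups overlapped. When epl1ab-labelled replicate 1 alone was set against Col-0, an alternative chosen after seeing the data, RD29B had a log2 fold change of -0.82 in place of 2.64, and RAB18 one of 0.19 in place of 3.03. These values restate the levels of 1 library and are given with no test. RD29B also lost its call when any library but epl1ab-labelled replicate 1 was left out, with edgeR adjusted p of 0.0526 to 0.0975. The summed seed maturation genes given above were high in the same 2 libraries, and their part in these values was not tested.

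For the members, epl1ab-labelled replicate 1 lay on the same side of Col-0 as replicates 2 and 3. Set alone against Col-0, it gave log2 fold changes of -3.15 for COR15B, -2.68 for KIN2, -5.09 for COR413IM1 and 1.42 for CBF2. With 1 library in that group these too are values with no test. RD29A, the neighbour of RD29B, was 4499, 4936 and 3939 in the epl1ab-labelled libraries, all below its Col-0 range of 12098 to 15483. The RD29B to RD29A ratio was 0.0118 to 0.0259 in Col-0 and 0.0371, 0.424 and 0.824 in epl1ab-labelled replicates 1, 2 and 3 (two-sided exact permutation test p = 0.1, adjusted p = 0.125).

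**Figure D5:**
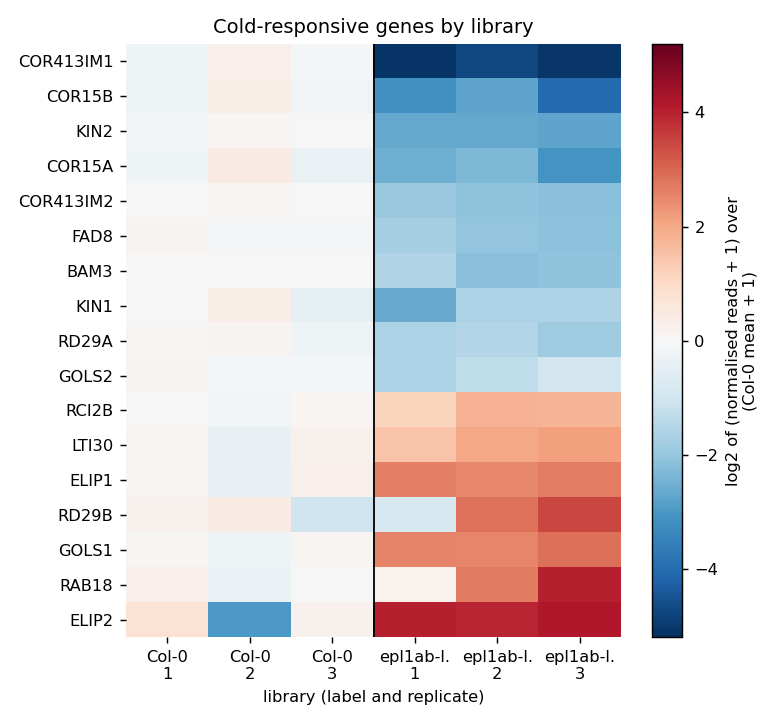
Level of the 17 listed cold-responsive genes in each library, as log2 of normalised reads plus 1 over the Col-0 mean plus 1, with blue for lower and red for higher. COR413IM1, COR15B and KIN2 are blue in all 3 epl1ab-labelled columns, while RD29B and RAB18 are deep red in replicates 2 and 3 and pale in replicate 1.

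Of 35 cold regulators and DREB factors 9 were in the tables, 7 called higher and 2 lower, beside 63.1% higher of all genes in the fit. With DESeq2 size factors of the listed genes 4 were called higher. As a share of both lists, 20.0% were listed higher and 5.71% lower, beside 12.3% and 6.31% of nuclear protein-coding genes. These lists include CBF2 and CBF3 and were also chosen with earlier results of these data known. Of 26 cold regulators 6 were in the tables, 5 called higher and 1 lower, and of 9 DREB factors 3 were, CBF2 and RAP2.1 higher and CBF3 lower. PRR9 and PRR7, clock proteins that repress CBF genes, rose 19.4-fold and 2.01-fold. CCA1, a morning clock protein that activates CBF genes, rose from 73.0, 62.3 and 50.0 to 927.1, 751.3 and 864.4 normalised reads, 13.7-fold (log2 fold change 3.77 with an SE of 0.18, adjusted p = 1.92e-06 in edgeR, 3 libraries a group). Both an activator and repressors of the CBF genes were thus higher at the time sampled.

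MYB15, a MYB repressor of CBF genes, rose 4.53-fold, from 84.0, 94.5 and 129.3 to 455.3, 444.6 and 493.7 normalised reads. ZAT10, a zinc finger repressor, rose 2.34-fold. RAP2.1, a repressor that is itself a CBF target and acts on COR genes, rose 3.62-fold, with 376.5, 389.7 and 389.1 normalised reads in the epl1ab-labelled libraries against 95 to 126.9 in Col-0. COR27, a cold-induced protein of the clock, fell 2.17-fold. With DESeq2 size factors of the listed genes PRR7 had a log2 fold change of -0.10 and ZAT10 one of 0.14, and neither was called (edgeR adjusted p = 0.641 and 0.622). ICE1, CAMTA3, HOS1, LHY and PIF4 were not in the tables.

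Of 12 genes of abscisic acid signalling 1 was listed in each direction, 8.33% of the list, beside 12.3% higher and 6.31% lower of nuclear protein-coding genes. ABI5, a bZIP activator, rose 4.85-fold, and NCED3, an enzyme of abscisic acid synthesis, fell 2.46-fold. The other 10 were not in the tables. ABI5 had 164.7 to 167.6 normalised reads in Col-0 and 608.5, 856.5 and 955.6 in epl1ab-labelled replicates 1, 2 and 3. NCED3 had 455.1 to 507.0 in Col-0 and 262.3, 165.9 and 159.8.

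Genes whose profile over the 6 libraries was nearest to each member were found by Euclidean distance on log2 of normalised reads plus 1, each centred on its Col-0 mean, among 4772 other genes. These distances describe the libraries and were not tested. For KIN2 the nearest were CTF2A, an oxidoreductase, HCAR, the plastid 7-hydroxymethyl chlorophyll a reductase, and GSTL2, a plastid glutathione transferase, at distances of 0.16, 0.197 and 0.224. For COR15B they were AT1G27480, described as an acyltransferase-like protein, PnsL2 of the plastid NDH complex and Lhca6, at 0.834, 0.873 and 0.874. COR15A came 34th of the 4772 for COR15B, with a distance of 1.26. The other copies ranked farther: KIN1 was 461st for KIN2, COR413IM2 339th for COR413IM1 and CBF3 2797th for CBF2.

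For COR413IM1 the nearest profiles were PQL3, a PsbQ-like plastid protein, BFT, a relative of FT, and AT5G19500, at 0.679, 0.843 and 0.847. BFT had 33.3 to 41.0 normalised reads in Col-0 and 0 reads in all 3 epl1ab-labelled libraries. Its edgeR log2 fold change was -8.26 against -4.96 for COR413IM1, so its nearness depends on the 1 added to each level. For CBF2 they were AT3G02840, an ARM repeat protein, PLA2A, a patatin-like lipase, and TMAC2, at 0.213, 0.356 and 0.428. AT3G02840 had 25.0, 29.0 and 48.8 normalised reads in Col-0 and 99.5, 67.5 and 56.1 in the epl1ab-labelled libraries, close to CBF2 in each one. None of the members was among the 3 nearest of another: KIN2 was 53rd for COR15B, and CBF2 stood farther from COR413IM1, at 10.5, than from COR15B, at 7.66, or KIN2, at 6.54.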

How the data were processed

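The authors deposited raw read counts per gene and library, with a log2 fold change, a p-value and its false discovery rate, per the file headers, for genes past their thresholds (tested on the values: absolute log2 fold change at least 1, false discovery rate under 0.05). TAIR10 and DESeq2 are named in the submitters' processing notes. Aligner and counter: not given in the sources used here. Per the labels' protocols, ribosomal RNA was depleted, the kit was stranded, and single-end reads of 50 bases were sequenced. Library scaling was recovered from the authors' log2 fold changes over 1774 genes of 200 reads or more per library (median absolute residual 0.00029). Counts were tested with edgeR 4.0.16 (R 4.3.3, quasi-likelihood, expression filter, 4773 genes, no block, Benjamini-Hochberg), and alternatively with DESeq2 1.42.0. The edgeR step was also run on simulated data, where a part of the genes changed by known folds and every gene had the same dispersion. No simulated gene was selected on its result, so that run does not test p-values of selected genes. Since the authors selected the genes on these libraries, adjusted p-values do not control false calls. Each sets the difference between labels against the variation among libraries of a label, as edgeR estimates it. Members and lists were chosen with earlier results of these data known. The named genes are the members, their copies, every listed DREB factor and cold-responsive gene, up to 3 regulators and abscisic acid genes per direction, and 3 nearest profiles per member; ZAT10 and PRR7 were added after their values were seen. Loci of 15 rows were reassigned by exact coordinates; 98.6% of matched nuclear genes had the start and end of TAIR10.1. Python 3.11.15, scipy 1.17.1 and biopython 1.88 were used.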

Additional observations from a re-analysis of the deposited data

How the results depend on the processing

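COR15B, KIN2 and COR413IM1 kept their direction and call in every setting run with at least 2 libraries a group. Leaving out each library in turn gave log2 fold changes of -3.53 to -2.94 for COR15B, -2.75 to -2.63 for KIN2, -5.07 to -4.79 for COR413IM1 and 0.85 to 1.40 for CBF2, with CBF2 adjusted p of 0.00465 to 0.0493. By their construction on selected genes, TMM factors moved the median log2 fold change by -0.47 and DESeq2 size factors by -1.11. CBF2 was then at 0.61 and at -0.02 (-0.0201). The size factors also gave 1530 genes called higher in place of 3012, and 4 cold regulators and DREB factors called higher in place of 7, with PRR7 at -0.10. When epl1ab-labelled replicate 1 stood alone against Col-0, a setting chosen after seeing the data because seed genes were high in the other replicates, RD29B was at -0.82 and the seed gene OLEO4 at -0.46; these are values of 1 library with no test. The replicate block gave -3.29, -2.68, -4.95 and 1.07 for COR15B, KIN2, COR413IM1 and CBF2. It left 2992 genes called higher. It lost the call of RD29B (2.06, edgeR adjusted p = 0.127) and of no other fitted member, copy, cold, abscisic acid, marker or targeted gene. Its calls were not looked up for the nearest profiles or the genes under other observations. Over all genes in the fit, same-numbered libraries did not deviate together (correlations of -0.28, -0.04 and -0.21). The numbers were therefore not taken as pairs, but correlations over all genes cannot decide this for single genes. COR15B, KIN2 and COR413IM1, however, were each highest in replicate 2 of both labels. With the block, the SE went from 0.338 to 0.220 for COR15B and from 0.179 to 0.087 for COR413IM1. It went from 0.089 to 0.101 for KIN2 and from 0.314 to 0.353 for CBF2. CBF2 is limited by its low counts, at 26 to 43 reads in a Col-0 library.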

Other observations

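Some genes with DREB names outside the lists were in the table of higher genes, which holds 66.1% of all listed genes. They were named after their values were seen, and their values under another scaling were not looked up, so nothing is read from them about the family. DREB2D had 22.9 ± 4.38 normalised reads in Col-0 and 96.7 ± 11.6 in the epl1ab-labelled libraries (SD of 3 libraries), and edgeR put the rise at 4.20-fold. DREB2C rose 2.68-fold and DREB2E 3.76-fold, and ERF012, described as DREB26, rose 2.38-fold. AT3G03341, described as a cold-regulated protein, had 30.5 to 46.2 normalised reads in Col-0. It had 16.4, 219.9 and 369.0 in epl1ab-labelled replicates 1, 2 and 3. Like RD29B and RAB18 it was high in replicates 2 and 3 only, but its replicate 1 lay below the Col-0 range.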
